A study of Mus musculus with 4 samples.

Results

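Toll-like receptor, NOD and NF-kB signalling was followed in Paneth cells, which sit at the bottom of the crypts of the small intestine and secrete antimicrobial granules, through a list of 36 genes drawn up from the pathway itself. The genes cover receptors, adaptors and kinases, NF-kB subunits, inhibitors and target genes. Each gene stood for the probe set that named it and no other gene and had the highest mean signal over the 4 arrays. Of the 36 genes, 32 had such a probe set, out of 18193 genes measured this way. The annotation table named none for Nod2, Irak4, Ripk2 and Nfkb1, which were not analysed here.

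All mice were male NMRI mice of 8 weeks that had been raised germ-free. The mice of one group stayed germ-free until they were killed. The other group was colonized for 10 days with microbes from the intestine of an ordinary, conventionally raised mouse (conventionalized). Crypt cells were cut from frozen sections with a laser, RNA of 3 mice per group was pooled, and 2 aliquots of 10 ng per pool were amplified and put on 1 Affymetrix array each. The 2 arrays of a group are thus duplicate amplifications of 1 pool. Standard errors and p-values below hold amplification and array error alone and say nothing of the spread between mice. Where a capture holds fewer cells of a type, this cannot be told apart from less RNA per cell.

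In textbook terms, Toll-like receptors bind bacterial lipoproteins, lipopolysaccharide, flagellin and nucleic acids at the cell surface or in endosomes, and NOD proteins bind peptidoglycan fragments in the cytosol. Their adaptors pass the signal through IRAK and RIP kinases, TRAF6 and TAK1 to the IkB kinase complex. The complex marks IkB proteins for destruction, and NF-kB dimers then enter the nucleus and switch on cytokines, chemokines and their own inhibitors. In the gut epithelium the pathway is known for sensing microbes and for being held back by several inhibitors. In mice, MyD88 signalling within Paneth cells is known to drive antimicrobial genes such as Reg3g.

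NF-kB binds a short kB element in promoters. Shown here are the promoters of 6 target genes that held a match and whose transcripts are usual readouts of the pathway. The stretches come from RefSeq gene starts (build GRCm38.p6), run 5′ to 3′ on the strand of the gene and stop before the start site. Capitals mark the match to GGANTTTCC, searched on both strands, where N is any base.
Nfkbia (chr12:55492648-55492711, minus strand): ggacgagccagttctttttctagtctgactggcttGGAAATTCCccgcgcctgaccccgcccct
Tnfaip3 (chr10:19015411-19015469, minus strand): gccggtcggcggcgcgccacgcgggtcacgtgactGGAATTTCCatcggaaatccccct
Cxcl1 (chr5:90891140-90891218, plus strand): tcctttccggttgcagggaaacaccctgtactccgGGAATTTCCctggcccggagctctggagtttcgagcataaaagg
Cxcl2 (chr5:90903768-90903846, plus strand): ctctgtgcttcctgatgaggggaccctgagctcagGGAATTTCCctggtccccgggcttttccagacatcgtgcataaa
Il6 (chr5:30013036-30013113, plus strand): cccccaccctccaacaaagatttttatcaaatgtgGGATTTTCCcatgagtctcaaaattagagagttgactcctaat
Icam1 (chr9:21015752-21015830, plus strand): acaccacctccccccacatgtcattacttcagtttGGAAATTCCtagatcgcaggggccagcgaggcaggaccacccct
The match began 29 bases before the start of Nfkbia, which held a further one at 178, and 24 before Tnfaip3. It began 70 bases before Cxcl1, 96 before Cxcl2, 43 before Il6 and 153 before Icam1. In the 250 bases before a start it occurred in 9 of the 28 members with a promoter sequence (also Map3k7, Nfkb2 and Tlr3) and in 1.25% of 27025 genes. The targets Tnf, Il1b, Il18 and Ccl2 were not among these 9. Whether each of them had a promoter sequence is not given here. The overlapping spelling GGGANTTTC was found in 7 of these 9 members, without Icam1 and Tnfaip3, and in 1.11% of genes. Both spellings were chosen after other spellings of the kB element had been searched and the matches in the members seen, so these member shares are a description and support nothing about the list. A match describes the letters of a promoter and does not show a bound site.

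The capture carried Paneth cell RNA by its markers. Of 23 Paneth markers listed, 12 had a probe set and 11 of them lay above the median signal of all probe sets. The 12 summed to 67285 and 149340 in the germ-free pool and to 309186 and 685994 in the other. All 11 had a positive difference, and Reg3g and Mptx1 were called higher. The sums here and below are of raw signal, so a few bright probe sets weigh most, and they give no measure of cell numbers. The brightest Paneth markers were Lyz1, at 24112 and 51494 against 80184.5 and 249594, and Defa31, at 10553 and 38475 against 57727 and 245509. Markers of other cells were also present. All 9 goblet markers lay above the median and summed to 50196 and 91420 in the germ-free pool against 108512 and 199984 in the conventionalized pool. Of their differences 6 were above 0, and limma called 0. The brightest goblet marker, Zg16, read 19257 and 43750 against 57300.5 and 145448 and weighed heavily in these sums. All 10 fibroblast markers lay above the median, with sums of 8353 and 8250 against 6947 and 6866. Of these 4 differed by more than 0, and limma called 0. The 15 enterocyte markers summed to 110205 and 198522 in the germ-free pool against 121880 and 277263 in the conventionalized pool, with 13 of 15 differences below 0 and Apoc3 called lower. The brightest of the 15, Fabp2, went the other way, at 20981 and 45252 against 51528 and 142558, and weighed heavily in these sums. Of 20 macrophage, dendritic cell and granulocyte markers, 8 lay above the median. Without Lyz2, whose probes can bind Lyz1, the other 19 summed to 4536 and 3962 in the germ-free pool against 4738 and 4325 in the conventionalized pool, and limma called 0 of the 8 tested (Lyz2 alone had an unadjusted p under 0.05). Of 8 B and plasma cell markers with a probe set, 5 lay above the median, and the 8 summed to 2858 and 2632 in the germ-free pool against 8179 and 10052 in the conventionalized pool. Igha, the constant region of immunoglobulin A, was called higher, with 994 and 1644 against 6273 and 7988 (limma adjusted p = 5.5e-05). Of 13 T and innate lymphoid markers 5 lay above the median, with sums of 1650 and 884 against 1558 and 2339, and of 8 endothelial markers 6 did, with sums of 1250 and 835 against 641 and 1049. Of these 11, limma called none, and only Gzma, a granule protease that read 244 and 172 against 423 and 766, had an unadjusted p under 0.05 (adjusted p = 0.493). No marker was at 0 on any array. Within these lists, Pecam1 of the endothelium, Cd3d and Gata3 of T and innate lymphoid cells and Tnfrsf17 of plasma cells were under a signal of 32 on every array. Any part of these cells in the results below was not tested. Fluidics station 1 washed the germ-free arrays and station 2 the conventionalized ones, so wash station and pool cannot be told apart.

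Most of the measured genes of the list lay above the median signal, and none of them was called different between the pools. A mean signal over the 4 arrays above 113.9, the median of all probe sets, was reached by 25 of the 32 genes, or 78.1%, against 66.6% of all genes by the same rule. Signals depend on each probe's affinity, so this threshold sorts probe sets into brighter and dimmer and gives no order of RNA amounts. It is also no test of presence, and only 17 of the 32 lay above the array's own median on every array. That share is not given here for all genes. Only the 25 above 113.9 were tested, with limma on log2(signal + 32). At a Benjamini-Hochberg adjusted p under 0.05, limma called 0 of 25 members, and 2 had an unadjusted p under 0.05. Over all genes tested by their brightest probe set, 0.355% were called. An unadjusted p under 0.05 was reached by 5.94% of those genes. The lowest limma adjusted p among the members was 0.754. With 4 arrays, an exact permutation test (two-sided) of a single gene could not go below p = 0.333.

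As a group the members lay near the centre of all genes. Their median log2 difference, conventionalized minus germ-free, was 0.06, with 14 above 0 and 11 below, against a median of 0.00 and 50.0% above 0 over all genes tested. The groups did not overlap, that is, both arrays of one pool lay beyond both of the other, in 9 members (36%), 7 higher (28%) and 2 lower (8%). Over all genes tested, 32.0% did not overlap, 15.9% higher and 16.1% lower. A difference of at least 2-fold was measured in 3 members (12.0%), Tlr2, Sigirr and Nfkbie, against 11.3% of all genes. All 3 reached the signal needed for the test only through their higher pool. The mean of the lower pool was 83.5 for Tlr2 (germ-free), 99.8 for Sigirr and 63.2 for Nfkbie (both conventionalized), under that threshold. Irak3, among the 7 higher without overlap, likewise had a germ-free mean of 98.9. The part of this filter in the shares was not tested. The shares without overlap in either direction and with a 2-fold difference were close to the background. The share without overlap and higher was above it and the share lower below it, and that split was not tested.

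**Figure D1:**
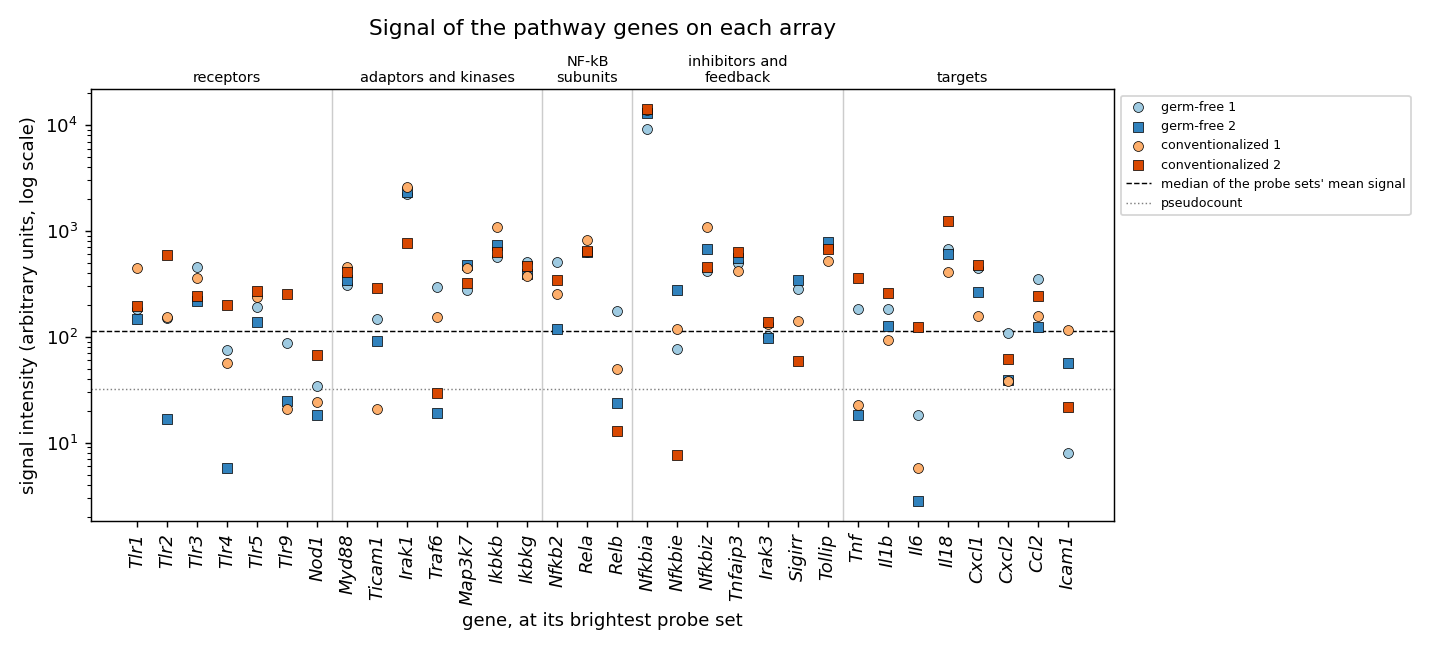
Signal of the 32 measured genes on each of the 4 arrays (points, log scale), in order of role, with the median of the probe sets' mean signal (dashed, 113.9) and the pseudocount of 32 (dotted). Nfkbia had signals from 9271 to 14243 over the 4 arrays, whereas Tlr2, Tnf and Il6 were spread widely within each pool.

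Among receptors, Tlr1, Tlr2, Tlr3 and Tlr5 lay above the median by their means, and Tlr4, Tlr9 and Nod1 did not. Of those above, Tlr2 did not lie above the array's own median on every array. Tlr2, which senses bacterial lipoproteins together with Tlr1 or Tlr6, read 150.3 and 16.7 in the germ-free pool against 154 and 588 in the conventionalized pool (probe set 1419132_at). The groups were apart by only a few units of signal, since germ-free array 1 and conventionalized array 1 were nearly level. The log2 difference was 1.85 ± 0.79 (SE of the fit, 2 arrays per group, limma adjusted p = 0.754), the largest among the members in the positive direction. The SE here and below is the one shared by probe sets of like signal and not one from the gene's own arrays. Tlr2's own duplicates lay 1.90 and 1.73 apart on the log2 scale, so its own error may be wider. Its difference came to 0.90 without germ-free replicate 2 and to 2.80 without germ-free replicate 1. With the low value of 16.7 its size also followed the pseudocount, at 2.31 with a pseudocount of 8 and 1.16 with 128. Tlr1, the partner of Tlr2, read 183 and 146 in the germ-free pool against 447 and 194 in the conventionalized pool, a log2 difference of 0.75 ± 0.60. Both conventionalized arrays were above both germ-free arrays, with conventionalized array 1 standing well above the other 3.

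Tlr5, the flagellin receptor, read 193 and 139 in the germ-free pool against 238 and 272 in the conventionalized pool. Duplicates were close and the groups did not overlap, and the log2 difference of 0.55 ± 0.62 had a 95% interval from -0.68 to 1.77. Tlr3, the endosomal receptor for double-stranded RNA, read 458 and 217 against 358 and 245, with the conventionalized values lying between the germ-free ones. Its log2 difference was -0.09 ± 0.52, with an interval from -1.12 to 0.94.

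The dim receptors, at their brightest probe sets, differed more between duplicates than between pools. Tlr4, the lipopolysaccharide receptor, read 75.3 and 5.70 in the germ-free pool against 56.1 and 201 in the conventionalized pool at the brightest of its 4 probe sets. Tlr9, which senses unmethylated CpG DNA, read 88.1 and 24.8 against 20.6 and 253, and Nod1, a sensor of peptidoglycan fragments, read 34.5 and 18.1 against 24.4 and 67.0. In all 3 genes germ-free array 1 and conventionalized array 2 were the highest, so the groups overlapped. A second Tlr4 probe set of similar signal, 1430695_at, read 46.5 and 13.0 against 94.7 and 126.8, with both conventionalized arrays higher and a log2 difference of 1.25. The remaining Tlr4 probe sets, 1418163_at and 1418162_at, were dimmer, with differences of 0.11 and 0.10 and overlapping pools. None of the probe sets of these 3 genes entered the test.

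All 7 measured adaptors and kinases lay above the median by their means, with a median log2 difference of -0.10 and a range from -0.66 to 0.38. Ticam1 and Traf6 did not lie above the array's own median on every array. Myd88, the adaptor of most Toll-like receptors, read 306 and 346 in the germ-free pool against 459 and 410.1 in the conventionalized pool. Its duplicates lay within 1.12-fold once the pseudocount is added, and both conventionalized arrays were higher. The log2 difference of 0.38 ± 0.49 (limma adjusted p = 0.999) was smaller than the standard error of the fit. That error is shared by probe sets of like signal, and the duplicate gaps of Myd88 itself were 0.16 and 0.15 on the log2 scale. The interval ran from -0.59 to 1.35. Ticam1, the adaptor of Tlr3, read 147 and 90.7 against 20.9 and 287, a pair of conventionalized duplicates 6.03-fold apart once the pseudocount is added. Traf6, the ubiquitin ligase downstream of Myd88, read 296 and 19.1 against 153 and 29.7, with one high and one low array in each pool. Its mean of 124.5 was near the threshold. Of its 5 probe sets only this one was tested, and the dimmer ones differed in sign (0.29, -1.03, -0.99 and 0.72).

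Irak1, a kinase recruited by Myd88, read 2215 and 2336 in the germ-free pool against 2626 and 768 in the conventionalized pool, with conventionalized array 2 alone low. Its log2 difference of -0.66 ± 0.42 became 0.20 without conventionalized replicate 2 and -1.53 without conventionalized replicate 1. Map3k7, the kinase TAK1, read 275 and 476 against 446 and 325, a difference of 0.06 ± 0.50. Ikbkb, the catalytic subunit of the IkB kinase complex, read 563 and 730.0 against 1101 and 635 (0.37 ± 0.43). Ikbkg, its regulatory subunit NEMO, read 515 and 394 against 374 and 468 (-0.10 ± 0.48). In these last 3 genes the pools overlapped.

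Of the NF-kB subunits, Rela, which carries the main transactivation domain, had closely matching arrays. It read 628 and 633 in the germ-free pool against 823 and 653 in the conventionalized pool, a log2 difference of 0.21 ± 0.44 with an interval from -0.65 to 1.07. Both conventionalized arrays were higher, one of them by little. Nfkb2, the precursor of the subunit of the non-canonical pathway, read 510 and 117 against 255 and 341, so the germ-free duplicates enclosed the conventionalized ones (0.20 ± 0.55). Relb, the partner of Nfkb2, was not above the median, with 174 and 23.9 against 49.3 and 13.0, and overlapped.

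**Figure D2:**
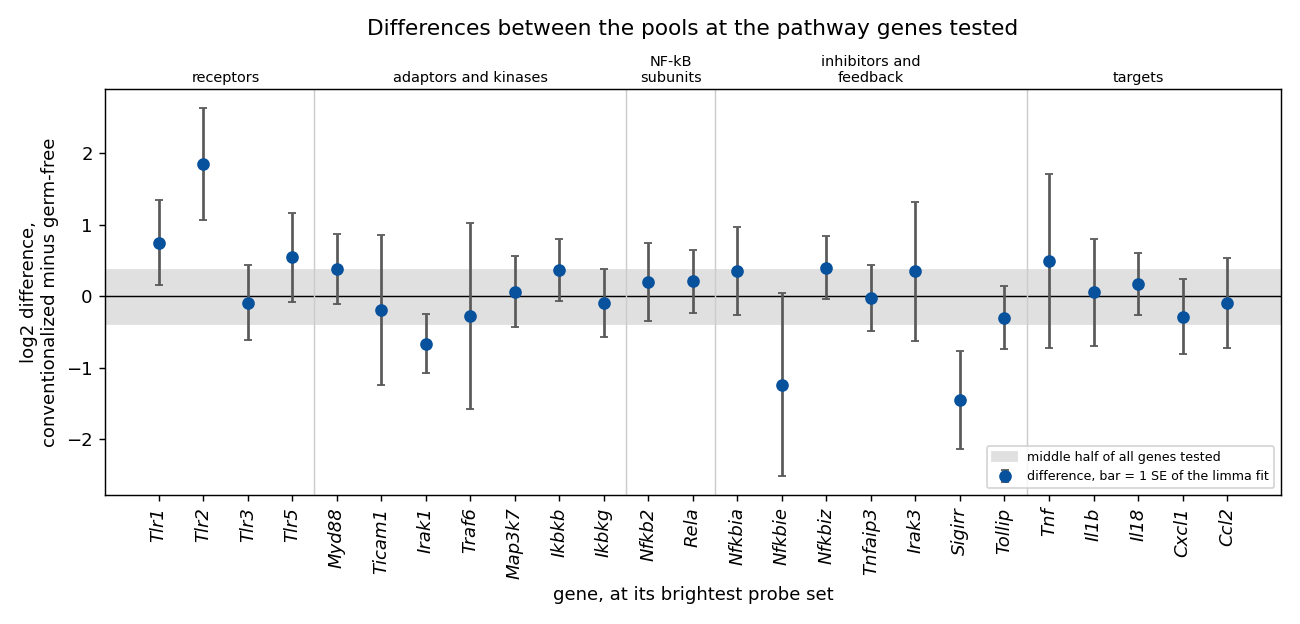
Log2 difference between the pools for the 25 genes tested (points; bars are 1 standard error of the limma fit), with the middle 50% of all genes tested as a grey band from -0.39 to 0.37. Tlr2 at 1.85 lies highest and Sigirr at -1.45 lowest, and most other points lie in or near the band.

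All 7 inhibitors and feedback regulators lay above the median by their mean over the 4 arrays, and Sigirr had the lowest difference of all members. Sigirr, Nfkbie and Irak3 did not lie above the array's own median on every array. Sigirr, a receptor of the IL-1 receptor family that dampens Toll-like and IL-1 signalling, read 282 and 342 in the germ-free pool against 140 and 59.7 in the conventionalized pool (probe set 1449163_at). Both conventionalized arrays were below both germ-free arrays. The log2 difference was -1.45 ± 0.69 (limma unadjusted p = 0.035, adjusted p = 0.908) and stayed between -1.90 and -1.0 with 1 array left out. It was -0.97 with a pseudocount of 128. Sigirr was also the largest of the 4 members whose difference exceeded the wider of its duplicate gaps, and it did not pass over all probe sets. Tollip, which restrains IRAK kinases, read 691 and 783 against 520 and 672, again with both conventionalized arrays lower, by -0.30 ± 0.44.

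Nfkbia, the inhibitor IkB-alpha and a direct NF-kB target with the promoter match shown above, read 9271 and 12956 in the germ-free pool against 13828 and 14243 in the conventionalized pool at probe set 1420088_at. Both conventionalized arrays were higher, and the germ-free duplicates lay 1.4-fold apart. The log2 difference of 0.36 ± 0.61 had an interval from -0.84 to 1.56. With quantile normalization it was 0.01, and the mean over the tested probe sets of Nfkbia gave -0.24. Tnfaip3, the deubiquitinase A20 and likewise a target with a match, read 494 and 556 against 419 and 628. The pools overlapped, and the difference of -0.03 ± 0.46 had an interval from -0.93 to 0.87. Nfkbiz, an atypical nuclear IkB protein, read 420.2 and 677 against 1102 and 461, with conventionalized array 1 alone high (0.40 ± 0.44).

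Irak3, the kinase-like inhibitor IRAK-M, lay just above the threshold of the test and had the closest duplicates of the members tested. It read 101 and 96.4 in the germ-free pool against 132 and 138 in the conventionalized pool, and the pools did not overlap. The log2 difference was 0.35, with a standard error of 0.97 because the fit takes the spread from probe sets of like signal and not from the 4 values themselves. Nfkbie, the inhibitor IkB-epsilon, read 76.4 and 274 against 119 and 7.60. The pools overlapped, and the difference of -1.24 ± 1.28 was -0.27 without conventionalized replicate 2 and -2.20 without conventionalized replicate 1.

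No target gene was called, the 5 tested had a median log2 difference of 0.06, and in 7 of 8 the same 2 arrays were the highest. Tnf, the founding cytokine of NF-kB responses, read 183 and 18.3 in the germ-free pool against 23 and 358 in the conventionalized pool. Each pool held one array above and one far below the median signal, and the log2 difference of 0.49 ± 1.22 left an interval from -1.90 to 2.88. Il1b, the inflammasome-processed cytokine, read 182 and 128 against 94.0 and 261 (0.06 ± 0.75). Il18, an epithelial cytokine of the same family, read 670 and 600.4 against 412 and 1234, with the germ-free duplicates inside the conventionalized range (0.17 ± 0.44).

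Of the chemokines, Cxcl1, a neutrophil attractant, read 451 and 266 in the germ-free pool against 157 and 480.3 in the conventionalized pool (-0.28 ± 0.52). Ccl2, a monocyte attractant, read 353 and 123 against 157 and 244 (-0.10 ± 0.63). Cxcl1 and Ccl2 overlapped between the pools. Cxcl2, a second neutrophil attractant, read 110 and 38.7 against 38.6 and 62.2 and was not tested. Il6 was also untested, with 18.1, 2.80, 5.80 and 124, so only conventionalized array 2 passed a signal of 32. Icam1, an adhesion molecule for leukocytes, was low as well, with 8.00 and 56.6 against 115 and 21.5.

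Germ-free array 1 and conventionalized array 2 were the highest pair in Tnf, Il1b, Il6, Il18, Cxcl1, Cxcl2 and Ccl2. These 2 arrays also had the higher medians over all probe sets, 133 and 136 against 86.5 for germ-free array 2 and 102 for conventionalized array 1. The same pair was highest in 13 of the 32 members and in 25.8% of all genes. After each array was centred on its median log2 value this held for 4 of the 8 targets, 7 of the 32 members and 10.9% of all genes. The part of array scale in the target signals was not tested further.

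**Figure D3:**
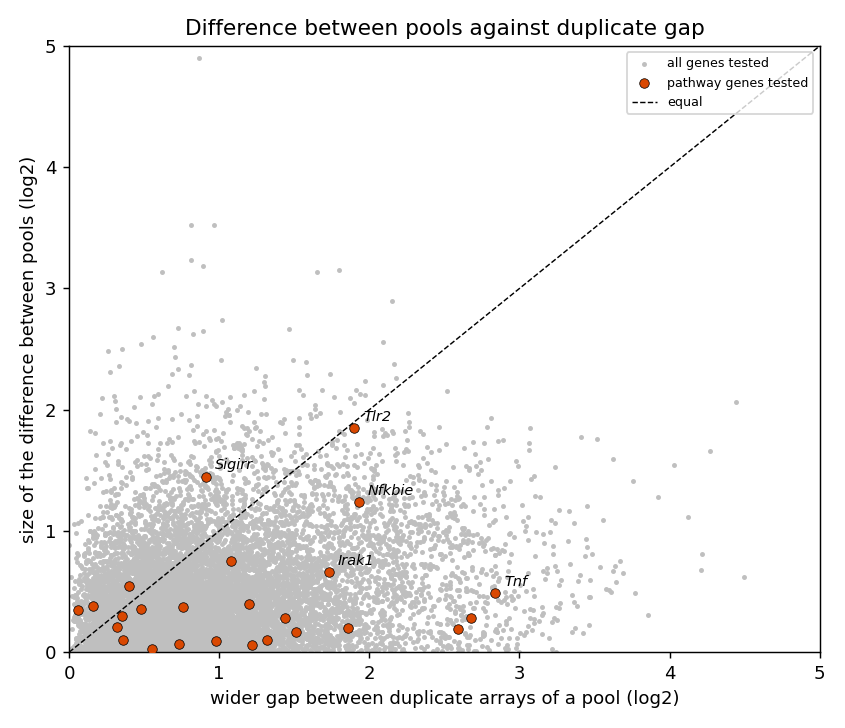
Size of the log2 difference between the pools against the wider of the 2 gaps between duplicate arrays, for the 25 pathway genes tested (orange) and all 12113 genes tested (grey), with a dashed line of equality. Of the pathway genes 21 lie below the line, among them Tnf and Nfkbie, and Sigirr lies above it.

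Duplicate error set the scale of these comparisons, in the members much as in all genes. The wider duplicate gap exceeded the difference between the pools in 21 of the 25 members tested, a share near the 80.5% of all genes. The exceptions were Tlr5, Myd88, Irak3 and Sigirr. Germ-free duplicates lay over 2-fold apart in 6 of the 25 members and conventionalized duplicates in 11, against 19.1% and 26.3% of all genes. The conventionalized share was above that of all genes and the germ-free share closer to it, which was not tested. The median standard error was 0.55 on the log2 scale.

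Several genes could be read at more than one probe set, and these did not always lie on the same side. In all, 43 probe sets of the members were tested, limma called 0 of them, and 3 had an unadjusted p under 0.05, against 0.333% and 5.13% of all probe sets tested. In 4 of the 7 genes with several, namely Irak1, Ikbkg, Nfkbia and Nfkbiz, differences of both signs occurred. The 4 of Irak1 ran from -0.66 ± 0.42 at the brightest (1438120_x_at) to 0.81 ± 0.47 at 1460649_at, where the pools did not overlap. The 5 of Nfkbia ran from 0.36 at the brightest to -1.26 ± 0.59 at the dimmest, 1448306_at, which read 407 and 342 in the germ-free pool against 268 and 62.8 in the conventionalized pool. All 4 of Ikbkb were above 0, from 0.37 to 0.98, and all 3 of Map3k7, from 0.06 to 0.86. Both of Cxcl1 were below 0, at -0.28 and -0.71. Dimmer probe sets, left out of the test, also separated the pools in both directions. Lower were 1448728_a_at of Nfkbiz (-1.74), 1449693_at of Map3k7 (-1.15) and 1443288_at of Traf6 (-0.99). Higher were 1430695_at of Tlr4 (1.25), 1422781_at of Tlr3 (1.06), 1450161_at of Ikbkg (0.81), 1426627_at of Map3k7 (0.73) and 1454184_a_at of Ikbkb (0.32). The Tlr3 probe set read 2.5 and 7.4 in the germ-free pool against 113.1 and 8.6 in the conventionalized pool. Its difference rested on conventionalized array 1, the only array above the pseudocount of 32. The Ikbkb probe set read 9.9 and 6.6 against 13.4 and 23.3, under the pseudocount of 32 on every array. Probe sets of 1 gene can bind different transcript ends or related sequences, as the suffixes _s_at and _x_at mark.

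**Figure D4:**
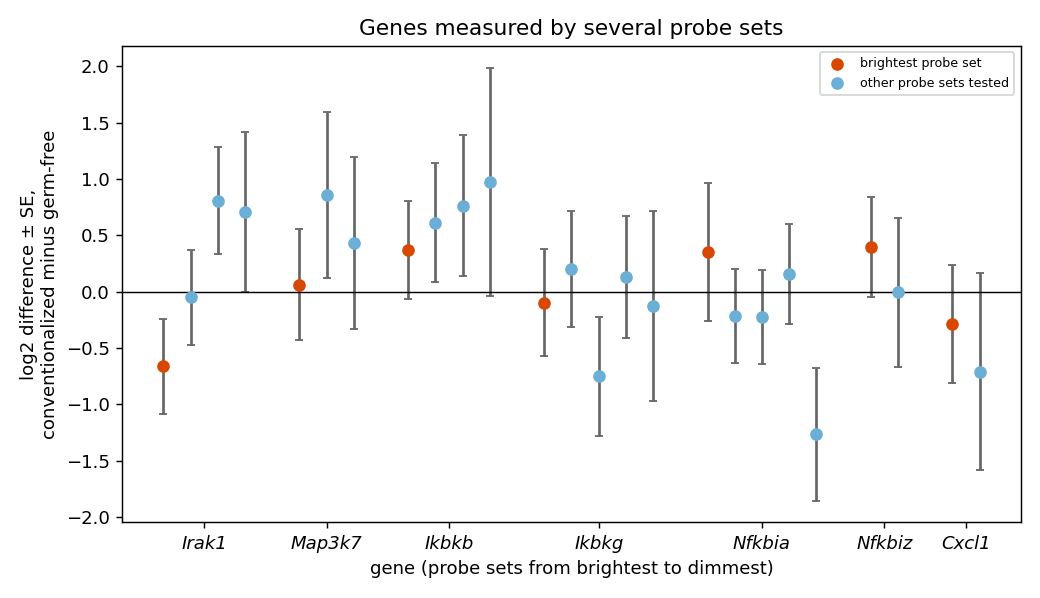
Log2 difference between the pools at each tested probe set of the 7 genes with more than 1 (points; bars are 1 standard error), from the brightest (orange) to the dimmest. Ikbkb and Map3k7 stay above 0 throughout, and Irak1 and Nfkbia cross it.

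No gene of a wider pathway list was called either. Of 101 further genes listed, 92 had a probe set and 67 lay above the median, and limma called 0 of the 67 (3 with an unadjusted p under 0.05, or 4.48%, against 5.94% of all genes). Their median log2 difference was 0.06, with 37 above 0 and 30 below, and the pools did not overlap in 17 (25.4%, against 32.0% of all genes). By role, the median was 0.10 for 13 receptors and co-receptors, 0.05 for 23 adaptors and kinases, -0.17 for 15 inhibitors and 0.10 for 16 targets. Rel, the remaining NF-kB subunit, was not above the median signal.

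For each role the 2 probe sets with the highest mean signal were read in full. Nlrp6, a NOD-like receptor of the gut epithelium, read 1955 and 2109 in the germ-free pool against 3260.1 and 1805 in the conventionalized pool (0.25 ± 0.42). Hsp90b1, the chaperone that folds Toll-like receptors, read 1204 and 2325 against 1955 and 1408 (-0.01 ± 0.42). Both overlapped between the pools. Pycard, the inflammasome adaptor ASC, read 6030 and 10002 against 13307 and 12450, with both conventionalized arrays higher (0.73 ± 0.57). Tbk1, a kinase of the Ticam1 branch, read 2374 and 3185 against 2874 and 3020 (0.10 ± 0.44).

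Of the inhibitors, Tax1bp1, an A20 partner, differed by -0.17 ± 0.42 and Commd1, which promotes loss of RelA, by -0.25 ± 0.42. Pigr, the receptor that carries IgA across the epithelium, read 15850 and 24525 in the germ-free pool against 31950 and 33244 in the conventionalized pool. Both conventionalized arrays were higher, and the log2 difference was 0.72 ± 0.78. Sod2, the mitochondrial superoxide dismutase, read 2417 and 4181 against 3268 and 2614 and overlapped (-0.12 ± 0.44). The 3 genes with an unadjusted p under 0.05, named after their values were seen, were Cd36, a lipid scavenger receptor and Toll-like co-receptor, at -1.26 ± 0.49, Ube2v1, a ubiquitin-conjugating enzyme variant, at 0.85 ± 0.42, and Gadd45b, a stress-induced NF-kB target, at -1.21 ± 0.62. The lowest limma adjusted p of the wider list was 0.587, for Cd36.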

How the data were processed

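The deposited values were linear signal intensities of probe sets, scaled by the authors to a trimmed mean of 250 on every array, as tested on the values. The software is not given in the sources used here. Control probe sets (64 of 45101) were left out. The log2 of intensity + 32 was taken, where 32 is the first power of 2 beyond the 20th percentile of all signals, which understates changes of dim genes. The 22491 probe sets with a mean above the median of all probe sets were fitted with limma 3.58.1 in R 4.3.3 (lmFit, eBayes with a variance trend), two-sided, with Benjamini-Hochberg adjustment over all of them. The fit called 75 probe sets (0.333%), 27 higher and 48 lower, 3 and 18 with median centring, or 34 and 7 without germ-free replicate 2. The prior degrees of freedom were infinite beside 2 residual ones, so a standard error is the one shared by probe sets of similar brightness. Intervals are 95%, 1.96 standard errors to each side. The fit was also run on simulated data with normal noise whose spread followed signal smoothly, as the fit itself assumes. That run could not test this assumption.

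Gene names came from the platform annotation of 2016. The number of arrays, 4, limits the precision. The members, roles and lists were chosen with earlier results of these data known. All members are named. Of the wider list, called genes were to be named, otherwise the 2 brightest per role. The 2 promoter motif spellings were chosen after the expression values were seen and after the other five, longer spellings had been searched and their matches in the members seen. The matches of the longer ones are not given here. Other records of the arrays gave the fluidics station only. All 4 arrays shared 1 chip lot, 1 scanner and 1 day.

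The alternatives were other pseudocounts, filters, normalizations, variance models, probe set rules, the aliquot number as a block, and each array left out.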

Additional observations from a re-analysis of the deposited data

How the results depend on the processing

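No member was called under any of the 16 alternatives, whose lowest limma adjusted p for a member ran from 0.103 (without conventionalized replicate 1) to 1.00. The members' median log2 difference ran from -0.15 to 0.21 with 1 array left out, was -0.04 with median centring and 0.19 with no signal filter. Of the 25 members, 10 kept their sign whichever array was left out. They were the 9 members without overlap, whose sign cannot change when 1 array is dropped, and Nfkbie. This count therefore restates the overlap count and is no further check, and the share over all genes is not given here. Between 23 and 25 members lay above the median signal under the alternatives that averaged arrays, and 17 on every array. The count over all probe sets, 75, did depend on the processing. Quantile normalization gave 33, median centring 21, and limma gave 0 without the variance trend (975 at an unadjusted p under 0.05) or with prior degrees of freedom fixed at 4 (464), an alternative chosen after seeing the data. Leaving out germ-free replicate 2 gave the lowest count, 41 (34 higher and 7 lower), and leaving out conventionalized replicate 1 the highest, 213 (32 higher and 181 lower), so the balance of directions turned with the array left out. It was 46 without germ-free replicate 1 and 47 when conventionalized replicate 2 was left out. With the aliquot number as a replicate block it was 30. The deviations of same-numbered aliquots correlated at -0.132 over probe sets, and the labels do not say that a number is shared, so the samples share only a number. With the crossed pairing, added after seeing the data, limma called 228 probe sets and 0 members. The cause of these moves was not tested. Duplicate error limits what could be seen: with a median standard error of 0.55, the 95% intervals of most members take in a 2-fold difference.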
